A study of Mus musculus with 4 samples.

Results

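Oligodendrocytes of the mouse prefrontal cortex (PFC) were examined at postnatal day 10 (P10) and in adult (P84). These are the ages with cells that met the rule below, in a single-cell RNA series that also covers P1 and P4. The study, by its own annotation, describes oligodendrocytes at P4 too. Cells entered with 1000 or more UMIs (unique molecular identifiers, each 1 counted RNA molecule), 1000 or more genes and a mitochondrial part of 15% or less. The oligodendrocytes were chosen by measured levels of 7 genes. A cell was taken as one if the UMIs of Mog, Mag, Cldn11, Opalin and Mobp summed to at least 20 per 10000 with at least 3 of the 5 genes detected, and if Pdgfra was below 1 and Gpr17 below 5 per 10000. This rule chose 1117 of 59918 cells, 9 of 15272 at P10 and 1108 of 14087 in adult. Each age is 1 BD Rhapsody library in the labels and files. The methods give 2 female mice per age, and the study names C57BL/6J as the strain. Cells were not assigned to mice, so an age is 1 sample, differences between ages have no replicate check, and no test was made. The library of the P10 cells held 287594712 UMIs and that of the adult cells 200198548. Cells with the same barcode in both libraries numbered 256, and no barcode was that of an oligodendrocyte at both ages.

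Oligodendrocytes wrap axons in myelin, a stack of plasma membrane rich in cholesterol and galactolipids and held together by a few abundant proteins. They arise from dividing precursors that carry the growth factor receptor Pdgfra, pass through a committed state marked by the receptor Gpr17, and then switch on myelin genes. In the mouse cortex this happens largely after birth, and myelin is added well into adult life.

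The oligodendrocyte share was 0.0589% of cells at P10 (exact binomial 95% interval 0.0270 to 0.112) and 7.87% in adult (7.43 to 8.32). No cell met the rule among 11545 at P1 or 19014 at P4, which allows shares of up to 0.0260% and 0.0158%, the limit of 3 counts of the total. All intervals cover counting error only. A share of captured cells also depends on how well each cell type survives digestion, and fewer oligodendrocytes and fewer captured ones cannot be told apart. The marker part of the rule alone was met by 57 cells at P10 and 1220 in adult. The limits on Gpr17 and Pdgfra then removed 48 of the 57 (84.2%) at P10, 46 of them over the Gpr17 limit, and 112 of the 1220 (9.18%) in adult. Most P10 cells with myelin genes thus still carried Gpr17, and the values for P10 below rest on the 9 that stayed under the limits.

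The marker sum, which chose the cells and is given as a description, ran from 21.2 to 384 per 10000 at P10 with a median of 113, and from 20.6 to 429 in adult with a median of 122. The 3 members nearest the threshold had sums of 21.2, 26.1 and 39.5 at P10 and of 20.6, 21.0 and 21.4 in adult. The nearest cells outside it, which met the other parts of the rule, had 13.2, 7.64 and 1.28 at P10 and 19.995, 19.5 and 19.3 in adult. All 5 genes were detected in 794 of the 1108 adult cells and in 2 of the 9 at P10. Levels are given from here on as CPM, counts per 1e6, the UMIs summed over the oligodendrocytes of an age and scaled to their total without mitochondrial and ribosomal protein transcripts. Brackets give exact 95% Poisson intervals. Mag, an adhesion molecule on the inner side of myelin, was at 5197 CPM (4857 to 5554) in the P10 cells and 3605 (3559 to 3650.2) in the adult cells. Cldn11, which seals the membrane layers, was at 5902 CPM (5539.8 to 6282) in the P10 cells and 5437 (5381 to 5493) in the adult cells, and Mobp, a basic protein of compact myelin, at 4736 CPM (4412 to 5078) in the P10 cells and 2505 (2468 to 2543) in the adult cells. Mog and Opalin, a surface glycoprotein and a membrane protein of myelinating cells, were the 2 rule genes with higher adult levels. Mog was at 496 CPM (395 to 615) in the P10 cells and 1112 (1087 to 1138) in the adult cells, and Opalin, from 14 UMIs at P10, at 83.7 CPM (45.8 to 140.5) in the P10 cells and 316 (303 to 330.0) in the adult cells. Their log2 ratios were 1.16 and 1.92, and 0.46 and 0.97 without the cells that carry genes of another cell type, described next.

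The 9 P10 cells differed greatly among themselves. Numbered from the lowest to the highest marker sum, they held 21177, 23777, 12907, 20087, 40742, 2683, 36701, 2791 and 22283 UMIs. Mbp, which compacts the membrane, had 27, 55, 23, 311, 371, 52, 483, 108 and 270 UMIs in them in that order. Cells 1 to 3 were thus low in this gene for their depth. These cells also had the most neuronal RNA of the 9, as much as whole neurons. The UMIs of Snap25, Syt1, Slc17a7, Gad1 and Neurod6, genes of synaptic release and neuronal identity, summed to 82.6, 61.8 and 55.0 per 10000 in cells 1 to 3, above their own marker sums of 21.2, 26.1 and 39.5. In the 9939 neurons of the P10 library the median was 63.1 with quartiles of 51.5 and 75.6. Cells 1 to 3 thus met the rule for oligodendrocytes and carried neuron genes at the level of neurons, and whether each barcode holds 1 cell cannot be told here. In cells 4 to 9 the same sum was 8.96, 28.7, 18.6, 24.5, 0 and 3.59. Cells 1, 2, 3, 5 and 7 were over the 20 per 10000 used as the neuron threshold, and cell 2 was also marked by the doublet caller Scrublet. No P10 cell was over the threshold for astrocytes or microglia. Cells 1 to 3 gave 57861 of the 183148 UMIs of the 9 cells (31.6%) and so enter the P10 level of every gene below. Without the cells over a threshold of another cell type, the ratio between ages moved by over 1.5-fold in 49 of 88 named genes with UMIs at both ages in both settings. Of the 54 of these that differed by 2-fold or more, 42 did so in the same direction without those cells. Among the 12 that did not were Scd2, Sema3d and Tubb4a, at log2 ratios of 0.65, -0.70 and 0.89. Many named genes were picked for large ratios over all members, and the cells kept here are part of the same members. The 42 of 54 are thus a description and no independent check, and the same count over all compared genes was not made.

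Cells 4 and 6 carried the highest sums over the list of newly formed oligodendrocyte genes, 154 and 164 per 10000, against 10.1 to 68.1 in the other 7. The long noncoding RNA 9630013A20Rik had 64 UMIs in cell 4, 86 in cell 5 and 110 in cell 7, and 0 to 10 in each of the others. These counts are not scaled to depth. Cell 6 held only 2683 UMIs in all, so its 5 UMIs of 9630013A20Rik and 11 of Enpp6 were not low for its depth. Enpp6, a choline phosphodiesterase of newly formed cells named after its values were seen, had 0, 2, 0, 32, 19, 11, 7, 0 and 1 UMIs in cells 1 to 9. Cell 9, with the highest marker sum, held 24 of the 27 P10 UMIs of Mal, a raft protein of compact myelin, and 18 of the 24 of Car2, a carbonic anhydrase, beside 4 UMIs of Marcks and 4 of Tubb2b. The remaining Mal UMIs were 3 in cell 3, and the remaining Car2 UMIs were 4 in cell 5 and 2 in cell 7. Gpr17, which the rule holds under its limit and which is given as a description, had 0, 0, 0, 9, 8, 0, 14, 0 and 7 UMIs in cells 1 to 9, so that 4 of the 9 cells still carried it. Summed, it was at 227 CPM (161 to 312) in the P10 cells and 22.4 (19.0 to 26.2) in the adult cells.

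**Figure D1:**
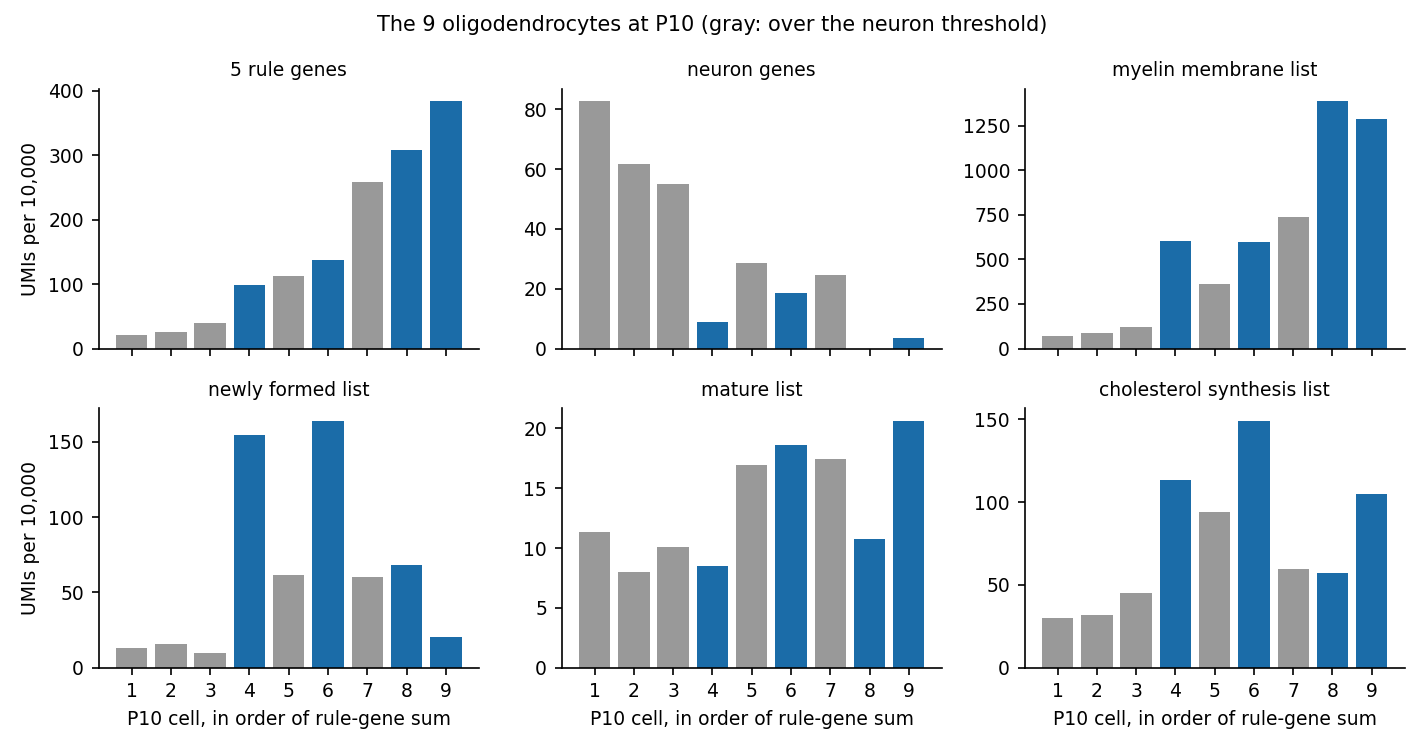
Bars give the UMIs per 10000 of 6 gene sets in each of the 9 P10 oligodendrocytes, ordered by the sum of the 5 rule genes, with cells over the neuron threshold in gray. Neuron genes reach 82.6 per 10000 in cell 1 and are at 0 in cell 8, and the newly formed list peaks at 164 in cell 6.

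Genes of other cell types were present at both ages. In adult, 269 of the 1108 oligodendrocytes (24.3%) were over the neuron threshold, 60 (5.42%) over that of astrocytes and 28 (2.53%) over that of microglia, 340 over any of them, and Scrublet marked 155. Microglia, which should lack neuron genes, were over the neuron threshold in 30.1% of 1231 adult cells, at a median of 4406 UMIs against 4918.5. At P10 it was 12.2% of 719 microglia against 5 of the 9 oligodendrocytes, at medians of 4524 and 21177 UMIs. All 8 neuron markers passed the filter below. Summed, they were at 4389 CPM in P10 oligodendrocytes and 3914 in adult ones, against 1583 and 3817 in microglia and 8360 and 14218.5 in neurons. The level in oligodendrocytes was thus 52.5% of that in neurons at P10 and 27.5% in adult. The 8 microglia markers, 6 of them without a UMI at P10, summed to 12 CPM there and 618 in adult, and the 8 astrocyte markers to 879 and 1601. The part of these RNAs in the differences below was not tested, and each list is also given for the cells under all 3 thresholds, which are 4 cells at P10 and 768 in adult. The 4 are cells 4, 6, 8 and 9, with 20087, 2683, 2791 and 22283 UMIs, so their summed levels rest mostly on cells 4 and 9. These 2 cells were unlike, with 0 and 24 UMIs of Mal and 125 and 4 of Marcks.

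Between ages, 7291 genes had a mean CPM of at least 20 and were compared. The P10 side held 167221 UMIs, so that 1 UMI was 5.98 CPM, and the adult side 6746831. In adult, 968 genes (13.3%) were higher by 2-fold or more and 1284 (17.6%) lower, with a median log2 ratio of -0.19 over all genes. Many of these ratios rest on few molecules, since 3442 genes had under 10 UMIs at P10 and 73 had none. The 73 passed the filter only through their adult level and were bound to be counted as higher, in the lists below as well. The 95% interval lay wholly above 2-fold for 272 genes (3.73%) and wholly below it for 349 (4.79%). Higher genes were 43.0% of those past 2-fold, but 56.7% after centring on the median of all genes, 51.5% without the 20 most abundant genes in the denominator, 52.1% without the Gpr17 and Pdgfra limits, 34.3% with free RNA subtracted, 32.0% without cells over the threshold of another class and 13.1% with cells thinned to 2000 UMIs. The balance of higher and lower genes therefore depended on the setting, and the lists are read beside the background shares of 13.3% and 17.6%. With thinning each P10 cell kept only 2000 UMIs, so that 1 P10 UMI was a high level. Weak genes without a P10 UMI mostly had no value there, which favours lower calls by design. How much of the 13.1% this makes was not tested. The amount of free RNA was assumed from neuron markers and not measured.

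**Figure D2:**
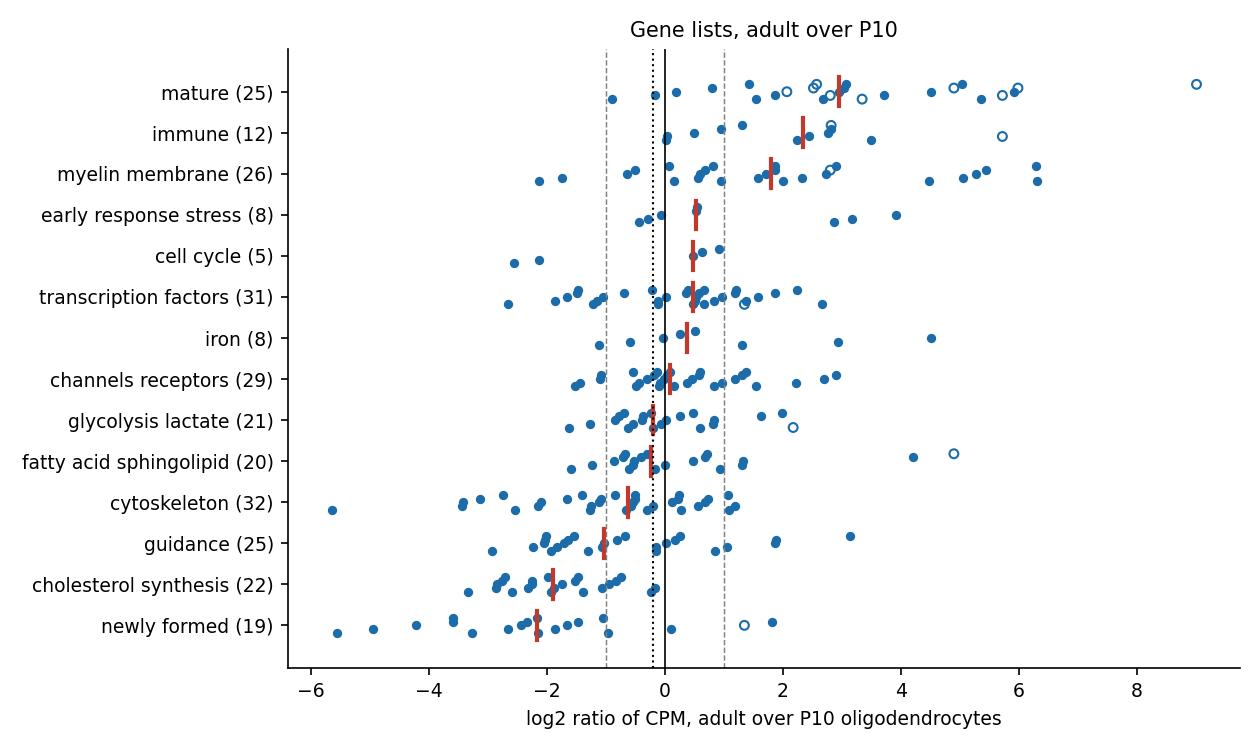
Each point is the log2 ratio of CPM, adult over P10 oligodendrocytes, of 1 gene past the filter, in 14 gene lists with the number of genes in brackets. Red bars mark medians, from -2.17 for the newly formed list to 2.94 for the mature list, open circles are lower bounds for genes without a UMI at P10, dashed lines are 2-fold and the dotted line is the median of all genes.

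Genes of the myelin membrane were mostly higher in adult. Of 26 genes on the list, which leaves out the rule genes, 15 were higher by 2-fold or more and 2 lower, with a median log2 ratio of 1.79 (1.11 in the cells under the other thresholds, 0.75 without the Gpr17 and Pdgfra limits, 0.78 in all other cells of the libraries). Mbp went the other way, with 10166 CPM (9689 to 10661) in the P10 cells and 7159.8 (7096 to 7224) in the adult cells, a log2 ratio of -0.51 (-0.58 to -0.44). Cnp, an enzyme of the cytoplasmic channels of myelin, had a log2 ratio of 0.15 (0.03 to 0.28). In the cells under the other thresholds the log2 ratios were -0.90 for Mbp and -0.46 for Cnp, so that the sign for Cnp turned. The levels of both thus differed by less than 2-fold between the ages, although single P10 cells differed far more.

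Larger ratios stood on few P10 UMIs. Cntn2, an adhesion molecule at the juxtaparanode, had 2 UMIs at P10 and 946 CPM (923 to 969.9) in adult, which gave a log2 ratio of 6.31 (4.45 to 9.35). No UMI of it was in the P10 cells under the other thresholds, where the ratio was a lower bound of 4.15. Anln, a scaffold of septin filaments in myelin, and Evi2a each had 1 UMI at P10 and 465 CPM (449 to 481) and 259 CPM (247 to 272) in adult. Their log2 ratios were 6.28 and 5.44, and 4.67 and 3.83 in the cells under the other thresholds. Of genes chosen after their values were seen, Mal was at 161 CPM (106 to 235) in the P10 cells and 5368 (5313 to 5423) in the adult cells, a log2 ratio of 5.06 (3.64 in the cells under the other thresholds), and Ermn, a cytoskeletal protein of late oligodendrocytes, at 299 CPM (222 to 394) in the P10 cells and 1978 (1944 to 2012) in the adult cells, a log2 ratio of 2.73 (1.56 in the cells under the other thresholds). The 2 genes of the list lower by 2-fold or more were also named after their values were seen. They were Nfasc, whose glial form anchors the myelin loops at the paranode, at 4545 CPM (4227 to 4879.8) in the P10 cells and 1032 (1008 to 1056) in the adult cells, and Sirt2, a tubulin deacetylase, at 3193 CPM (2928 to 3476) in the P10 cells and 955 (932 to 979) in the adult cells. Nfasc was detected in 9 of the 9 P10 cells, with 182, 142, 204 and 182 of its 760 UMIs in cells 4, 5, 7 and 9. The Gpr17-high cells with myelin markers, which the rule excludes, held still more of it, 9499 CPM at P10 and 8045 in adult.

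Genes of mature oligodendrocytes had the highest median of the 14 lists. Of 25 genes past the filter, 21 were higher in adult by 2-fold or more and 0 lower, with a median of 2.94 (3.27 in the cells under the other thresholds, 1.14 in all other cells). No UMI at P10 was found for 9 of the 25, so this median rests partly on lower bounds. These 9 passed the filter only through their adult level and were bound to be counted among the 21. The median was 2.77 to 2.97 when each P10 cell was left out in turn. With cells thinned to 2000 UMIs it was 2.82, or 1.68 with genes kept at the bound. Ptgds, which makes prostaglandin D2 and carries lipids, had no UMI in any P10 oligodendrocyte and 9227 CPM (9155 to 9299.6) in adult. With P10 set at 3 UMIs, or 17.9 CPM, its log2 ratio was at least 9.01. Car2 was at 144 CPM (92.0 to 214) in the P10 cells and 5869.6 (5812 to 5928) in the adult cells, a log2 ratio of 5.35 (4.16 in the cells under the other thresholds), and Apod, a lipid carrier, at 35.9 CPM (13.2 to 78.1) in the P10 cells and 2159 (2124 to 2195) in the adult cells. Apod had 6 UMIs at P10, all in cell 7. Selenop, a selenium carrier, also had no UMI at P10 and 1134 CPM (1108 to 1159) in adult, but adult microglia held 5234 CPM of it. Il33, a nuclear cytokine, had none at P10 and 944 CPM (921 to 968) in adult, against 5.20 CPM in adult microglia. Qdpr, which regenerates tetrahydrobiopterin, was at 179 CPM (121 to 256) in the P10 cells and 2341 (2305 to 2378) in the adult cells.

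With each cell thinned to 2000 UMIs, Ptgds was detected in 94.3% of adult oligodendrocytes, Car2 in 98.4%, Apod in 92.4% and Il33 in 71.7%. In adult microglia thinned in the same way the shares were 9.05%, 8.08%, 2.53% and 0.653%. Thinning left out 2 of the 1108 oligodendrocytes and 5 of the 1231 microglia. None of the 9 P10 cells had a UMI of Ptgds or Il33, which allows a share of up to 33.6% by the exact interval. This bounds the share of cells with a UMI at these depths, which were only 2683 and 2791 UMIs in cells 6 and 8, and not the share of cells that express the genes.

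**Figure D3:**
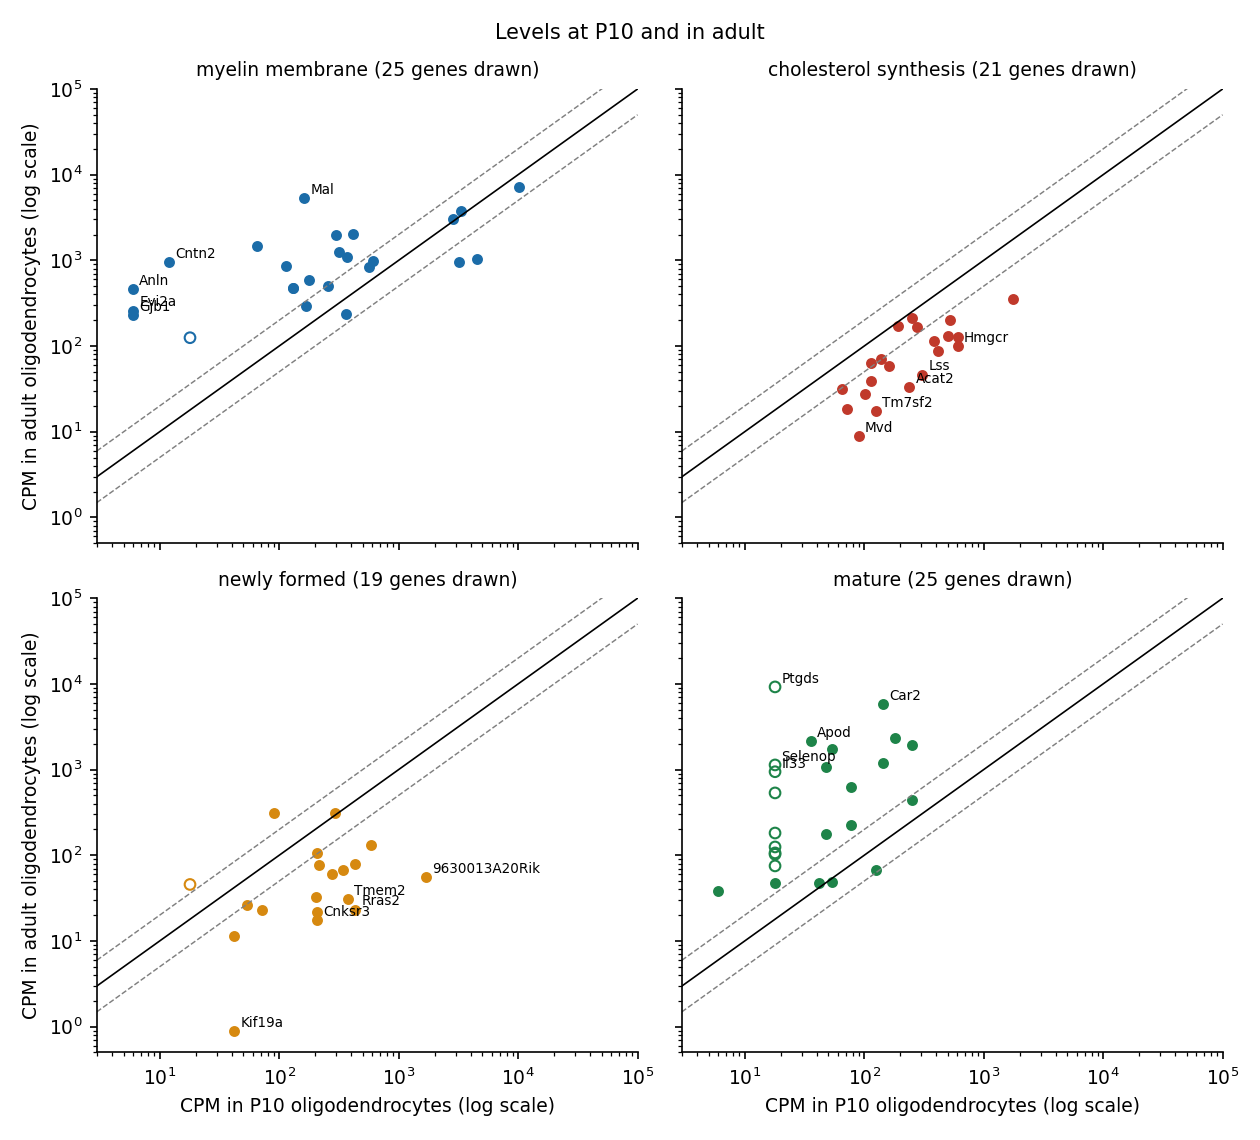
Each point is 1 gene of 4 lists, of which those reported here are drawn, with its CPM in the P10 oligodendrocytes on the horizontal axis and in the adult ones on the vertical axis, both on log scales. The solid line is equality, the dashed lines are 2-fold, and open circles are genes without a UMI at P10, drawn at 3 UMIs (17.9 CPM). Cholesterol genes lie below the line, from Mvd at 8.89 CPM in adult upward, and mature genes mostly above it, up to Ptgds at 9227 CPM.

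Genes of newly formed oligodendrocytes were mostly lower in adult. Of 19 genes past the filter, 15 were lower by 2-fold or more and 2 higher, with a median of -2.17 (-3.13 in the cells under the other thresholds, -0.70 in all other cells, -2.36 to -1.75 without each P10 cell). The noncoding RNA 9630013A20Rik (GRCm38, chromosome 14, 84458639 to 84476424, minus strand, annotated as antisense) was at 1692 CPM (1501 to 1901) in the P10 cells and 55.1 (49.7 to 61.0) in the adult cells, a log2 ratio of -4.94 (-5.17 to -4.71). Whether reads were counted by strand is not given in the sources used here. Rras2, a small GTPase, was at 431 CPM (337 to 542) in the P10 cells and 23.3 (19.8 to 27.2) in the adult cells. Kif19a, a kinesin, rested on 7 UMIs at P10 and 6 in adult and was at 41.9 CPM (16.8 to 86.2) in the P10 cells and 0.889 (0.326 to 1.94) in the adult cells. Fyn, the kinase that relays axonal contact to the cytoskeleton, was at 586 CPM (476 to 714) in the P10 cells and 132 (123 to 141) in the adult cells, a log2 ratio of -2.15 (-3.07 in the cells under the other thresholds). Bcas1, a protein of cells that are starting to myelinate, did not differ by 2-fold, with 293 CPM (217 to 387) in the P10 cells and 316 (302 to 329) in the adult cells, and its log2 ratio turned from 0.11 to -0.62 in the cells under the other thresholds. The P10 level of 9630013A20Rik came mostly from cells 4, 5 and 7, as given above. Its adult level also came from few cells, since the 10 adult cells with the most held 327 of its 372 UMIs (87.9%).

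Cholesterol synthesis genes were lower in adult or within 2-fold. Cholesterol of myelin is made within the brain, and the list holds the enzymes from acetyl-CoA to cholesterol with their regulators. Of 22 genes past the filter, 17 were lower in adult by 2-fold or more and 0 higher, with a median of -1.90 (-2.60 in the cells under the other thresholds, -2.07 to -1.67 without each P10 cell). Hmgcs1, which makes HMG-CoA, was at 1752 CPM (1557 to 1965) in the P10 cells and 349 (335 to 364) in the adult cells, a log2 ratio of -2.33 (-2.50 to -2.15). Cyp51, which demethylates lanosterol, was at 610.0 CPM (497 to 740.5) in the P10 cells and 128 (119 to 137) in the adult cells. Mvd, which makes isopentenyl diphosphate, had the largest difference, with 89.7 CPM (50.2 to 148) in the P10 cells and 8.89 (6.79 to 11.4) in the adult cells, on 15 UMIs at P10. Srebf2, a transcription factor of sterol genes, and Insig1, which retains its escort, both named after their values were seen, had log2 ratios of -0.24 (-0.68 to 0.24) and -0.16 (-0.67 to 0.39).

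These genes were lower in adult outside the oligodendrocytes as well. The median log2 ratio of the list was -1.04 in Pdgfra-high cells, -1.09 in astrocytes, -0.78 in microglia and -1.03 over all cells that are not oligodendrocytes. Summed over the list, oligodendrocytes held 7882 CPM at P10 and 2211 in adult, while all other cells pooled held 3580 and 1737. Within that pool, astrocytes held 6856 and 3878 CPM, more than oligodendrocytes in adult. Gpr17-high cells with myelin markers held 8902 and 4422, more than oligodendrocytes at both ages. The list median was below 0 in oligodendrocytes, Pdgfra-high cells, astrocytes, microglia and all other cells pooled, and whether it differed between them was not tested.

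Promoters of the list are shown because 17 of its genes were lower together. The 250 bases before the start were taken from RefSeq sequences on GRCm38.p6, which matched 17 of the 24 genes, and were searched on both strands. The letters CCAAT, the box bound by NF-Y, stood in 16 of the 17 against 37.5% of 27025 genes. TCACNCCAC, a sterol element, was in 1 of the 17, Hmgcs1, against 1.22%, while 2 of 20 glycolysis, 1 of 9 iron and 1 of 26 transcription factor genes held it too. In all, 4 motifs were searched in 14 lists, and the promoters and capitals shown were chosen after the matches were seen. CCAAT was also in 8 of 9 matched genes of the cell cycle list, and ACAAAG and ACAAT, short SOX-type motifs, were in 4 and 5 of 17 myelin membrane genes against 18.6% and 30.9% of all genes. A match is a string of letters and not a bound site. The window of Hmgcs1 and those of the 3 genes with the largest differences among the others are printed 5′ to 3′ on the strand of the gene, with matches to CCAAT (or ATTGG on the other strand) and TCACNCCAC in capitals.
Hmgcs1, chr13:119690101-119690350, plus strand: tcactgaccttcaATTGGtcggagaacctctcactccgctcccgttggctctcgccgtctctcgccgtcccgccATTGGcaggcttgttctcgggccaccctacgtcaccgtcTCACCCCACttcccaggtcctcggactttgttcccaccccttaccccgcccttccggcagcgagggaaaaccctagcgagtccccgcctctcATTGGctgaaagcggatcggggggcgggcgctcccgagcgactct
Mvd, chr8:122443423-122443672, minus strand: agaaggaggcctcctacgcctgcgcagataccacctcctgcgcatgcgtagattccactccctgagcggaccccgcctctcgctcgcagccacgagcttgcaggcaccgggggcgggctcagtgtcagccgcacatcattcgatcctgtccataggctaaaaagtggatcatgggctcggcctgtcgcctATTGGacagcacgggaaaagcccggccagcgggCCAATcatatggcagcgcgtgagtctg
Tm7sf2, chr19:6067851-6068100, minus strand: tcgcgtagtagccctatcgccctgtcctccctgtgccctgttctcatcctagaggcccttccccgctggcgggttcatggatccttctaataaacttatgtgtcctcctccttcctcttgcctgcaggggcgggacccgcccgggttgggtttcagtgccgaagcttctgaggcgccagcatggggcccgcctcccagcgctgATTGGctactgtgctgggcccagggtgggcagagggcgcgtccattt
Acat2, chr17:12960726-12960975, minus strand: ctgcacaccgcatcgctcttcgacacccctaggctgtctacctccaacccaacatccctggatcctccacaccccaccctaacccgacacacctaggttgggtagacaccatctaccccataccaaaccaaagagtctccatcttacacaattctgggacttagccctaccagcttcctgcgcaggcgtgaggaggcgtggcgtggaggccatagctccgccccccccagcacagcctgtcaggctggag

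The window of Hmgcs1 holds 3 CCAAT matches and the sterol element, that of Mvd 2 CCAAT matches, that of Tm7sf2 1, and that of Acat2 neither motif.

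Other lipid genes showed no common direction. Of 20 genes for fatty acids and sphingolipids, 4 were higher and 2 lower, with a median of -0.23 (-0.53 in the cells under the other thresholds). Ugt8a, which makes galactosylceramide, was at 2165 CPM (1948 to 2399.7) in the P10 cells and 1357 (1329.7 to 1385) in the adult cells, a log2 ratio of -0.67 (-1.33 in the cells under the other thresholds), and Scd2, a desaturase, at 2882 CPM (2631 to 3152) in the P10 cells and 7239 (7175 to 7303) in the adult cells. Aspa, which frees acetate for lipid synthesis, had no UMI at P10 and 534 CPM (517 to 552) in adult. Of 8 iron genes, 3 were higher and 1 lower, with a median of 0.38 (0.25 in the cells under the other thresholds, -0.52 with cells thinned to 2000 UMIs). Fth1, the ferritin heavy chain, was at 783 CPM (655 to 929.6) in the P10 cells and 6006 (5948 to 6065) in the adult cells, and Trf, the iron carrier that oligodendrocytes make, at 47.8 CPM (20.7 to 94.3) in the P10 cells and 1084 (1059 to 1109) in the adult cells, a log2 ratio of 4.50 (5.91 in the cells under the other thresholds). Trf had 2, 5 and 1 UMIs in P10 cells 5, 7 and 9. The 5.91 thus rests on 1 P10 UMI, with an interval of 3.43 to 11.2. The log2 ratio of Fth1 was 2.94 in oligodendrocytes and -0.14 in all other cells.

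Cytoskeletal genes were lower in 14 of 32 cases and higher in 3, with a median of -0.62 (-0.35 in the cells under the other thresholds). The median of the list was -0.67 in all other cells, -0.65 in Pdgfra-high cells, -0.63 in astrocytes and -0.84 in microglia, so that it was lower in adult in those cells too. Tubb2b, a tubulin of young cells, was at 1507 CPM (1327 to 1705) in the P10 cells and 30.1 (26.1 to 34.5) in the adult cells, and its log2 ratio was -4.87 in all other cells. Of its 252 P10 UMIs, cells 1, 2, 3, 5 and 7, which were over the neuron threshold, held 35, 34, 31, 63 and 71. Marcks, which links actin to the membrane, was at 2338 CPM (2112 to 2582) in the P10 cells and 217 (206 to 229) in the adult cells, a log2 ratio of -3.43 (-4.68 in the cells under the other thresholds), with 125 and 119 of its 391 UMIs in cells 4 and 5. Tubb4a, a tubulin abundant in oligodendrocytes, was at 2207 CPM (1987 to 2444) in the P10 cells and 4695 (4643 to 4747) in the adult cells, a log2 ratio of 1.09 (0.94 to 1.24) that became -0.091 without the Gpr17 and Pdgfra limits.

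Axon guidance genes were lower in 13 of 25 cases and higher in 4, with a median of -1.03 (-0.90 in the cells under the other thresholds, -1.81 without Scrublet-marked cells). Sema5a was at 699.7 CPM (579 to 839) in the P10 cells and 91.5 (84.4 to 99.0) in the adult cells, a log2 ratio of -2.94 (-4.33 in the cells under the other thresholds), and Sema4d, a semaphorin of myelin, at 2063 CPM (1851 to 2293) in the P10 cells and 437 (421 to 453) in the adult cells. Sema6a, chosen after its value was seen, was at 1279.7 CPM (1114 to 1463) in the P10 cells and 318 (304 to 332) in the adult cells. Sema3d, a secreted semaphorin, was at 65.8 CPM (32.8 to 118) in the P10 cells and 32.2 (28.0 to 36.7) in the adult cells, on 11 UMIs at P10, and was detected in 4 of the 9 P10 cells. The Gpr17-high cells with myelin markers held 322 CPM at P10 and 251 in adult, and Pdgfra-high cells 89.5 and 157. Rtn4, which encodes Nogo, had a log2 ratio of 0.17 (0.00 to 0.34).

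Of transcription factors, 8 of 31 were higher and 8 lower, with a median of 0.47 (0.08 in the cells under the other thresholds). Olig1 and Myrf, factors of the lineage and of myelin genes, were at log2 ratios of 0.66 (0.35 to 0.99) and 0.67 (0.36 to 0.99). In the cells under the other thresholds they were 0.49 and -0.029, so that the sign for Myrf turned. Tcf7l2, a Wnt effector of the onset of myelination, was at 203 CPM (141 to 284) in the P10 cells and 32.2 (28.0 to 36.7) in the adult cells, a log2 ratio of -2.66 (-4.03 in the cells under the other thresholds). Of the immune list, 8 of 12 were higher and 0 lower, with a median of 2.34 (1.63 in the cells under the other thresholds). No UMI at P10 was found for 2 of the 12, Il33 among them. These 2 passed the filter only through their adult level and were bound to be counted among the 8. Il33 is also counted on the mature list. The median was 1.35 in all other cells, 1.11 in Pdgfra-high cells, 1.25 in astrocytes and 1.20 in microglia. In oligodendrocytes thinned to 2000 UMIs it was 0.82, or -0.28 with genes kept at the bound. H2-D1, a class I histocompatibility chain, was at 29.9 CPM (9.71 to 69.8) in the P10 cells and 337 (323 to 351) in the adult cells and B2m, its partner, at 59.8 CPM (28.7 to 110.0) in the P10 cells and 406 (390.5 to 421) in the adult cells, while microglia held 3806 CPM of B2m in adult. Of channels and receptors, 7 of 29 were higher and 4 lower with a median of 0.09, which was -0.25 in the cells under the other thresholds and 1.16 without the Gpr17 and Pdgfra limits. Gpr37, a receptor of late oligodendrocytes, was at 114 CPM (68.4 to 177) in the P10 cells and 850.2 (828 to 872) in the adult cells. Of glycolysis and lactate genes, 3 of 21 were higher and 2 lower with a median of -0.20 (-0.51, and 0.59 without the limits). Early response and stress genes had 3 of 8 higher and 0 lower with a median of 0.53 (0.34). Of 5 cell cycle genes past the filter, 2 were lower and 0 higher, and the median was 0.48 (0.68), or -0.63 without Scrublet-marked cells and -1.31 with thinning. The 2 lower genes were Cdkn1a and Cdkn1c, at log2 ratios of -2.55 and -2.14 (-1.39 and -3.62 in the cells under the other thresholds). Both encode inhibitors of the cell cycle, as does Cdkn1b at 0.92, so lower levels of the 2 are no measure of less division. Top2a, named after its value was seen, had no UMI in oligodendrocytes of either age.

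The same lists placed the oligodendrocytes beside the other cells of the lineage. Pdgfra-high cells carry at least 5 per 10000 of Pdgfra with Olig1 and numbered 272 at P10 and 74 in adult. Gpr17-high cells carry at least 5 per 10000 of Gpr17 with Olig1 and were divided, after the data were seen, into those that meet the marker part of the rule, 44 at P10 and 41 in adult, and those that do not, 161 and 27. The newly formed list summed to 1506, 15214, 21062 and 5801 CPM at P10 from Pdgfra-high cells through Gpr17-high cells without and with markers to oligodendrocytes. In adult it was 1291, 11824, 13425 and 1471. Its highest sum at both ages was in Gpr17-high cells with markers. The mature list was at 1002, 1080, 1587 and 1555 CPM at P10 and at 1395, 2511, 9392 and 30525 in adult. Gpr17-high cells with markers thus had a higher mature sum in adult than the P10 oligodendrocytes. The median per cell of that sum was 50.9 per 10000 in them, 11.3 in P10 oligodendrocytes and 328 in adult ones. P10 oligodendrocytes and Gpr17-high cells with markers of that age had sums of 1555 and 1587 CPM. Outside the lineage the P10 sum was 1089 CPM in neurons, 2277 in astrocytes and 5038.5 in microglia, and it was 1272 in all cells that are not oligodendrocytes. The P10 sum of oligodendrocytes thus lay within the range of these other cells.

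**Figure D4:**
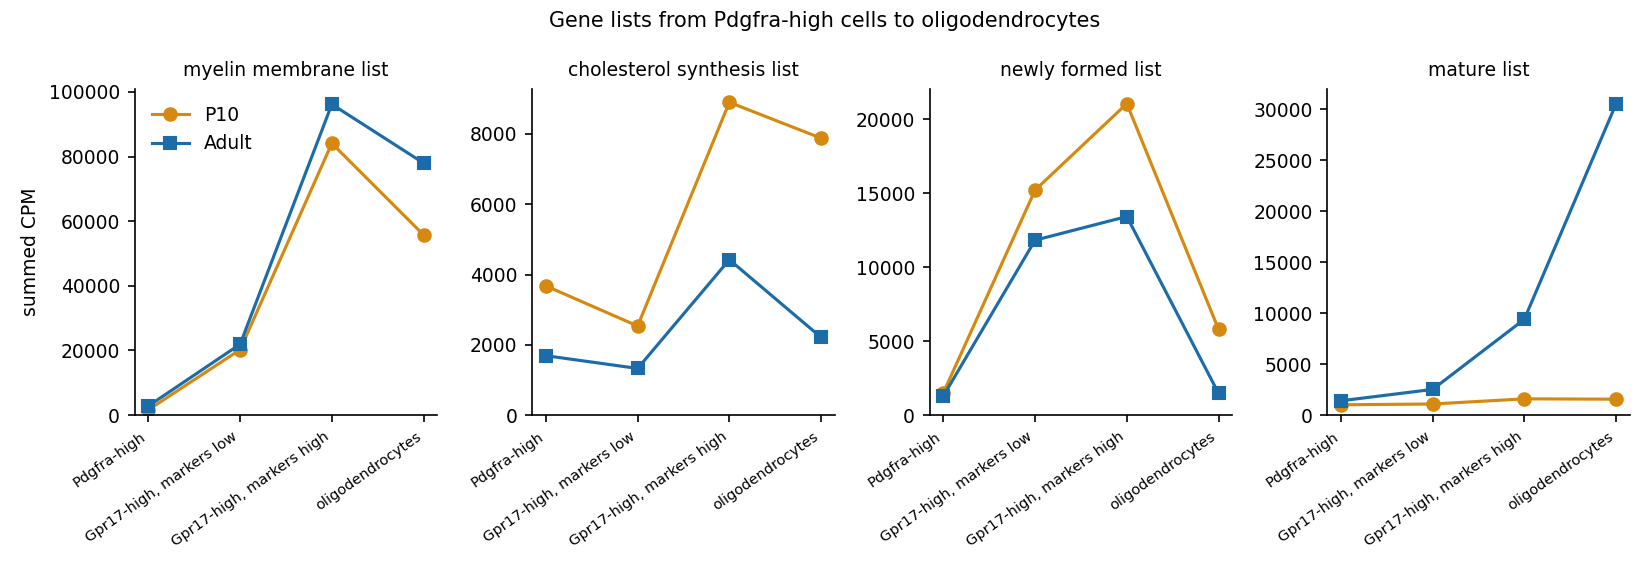
Lines give the summed CPM of 4 gene lists in 4 groups of cells at P10 (orange circles) and in adult (blue squares), from Pdgfra-high cells to oligodendrocytes. The newly formed list peaks at 21062 CPM at P10 in Gpr17-high cells with markers, and the mature list reaches 30525 CPM in adult oligodendrocytes.

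Within the adult library, 770 of 7756 genes (9.93%) were higher by 2-fold or more in oligodendrocytes than in Pdgfra-high cells and 1728 (22.3%) lower. Neuron markers summed to 9787 CPM in these Pdgfra-high cells against 3914 in oligodendrocytes, where 6 of the 8 were lower and 0 higher, with a median of -1.34. The part of neuronal RNA in the lower genes was not tested. The myelin membrane list had 25 of 26 higher and 0 lower with a median of 5.10, and the mature list 22 of 25 higher with a median of 4.78. Of 19 cholesterol genes 4 were higher and 1 lower. Of 8 cell cycle genes 6 were lower and 0 higher, with a median of -3.38. The rule chose these cells by myelin genes, so these values are a description. Against the adult Gpr17-high cells without markers, 700 of 7730 genes (9.06%) were higher by 2-fold or more and 1520 (19.7%) lower, and against those with markers 846 of 7083 (11.9%) and 630 (8.89%). The neuron genes summed to 5871 CPM in the Gpr17-high cells without myelin markers and to 1479 in those with them, against 3914 in oligodendrocytes. Their part in these counts was not tested either. Between oligodendrocytes and the cells with markers, Car2 was at 5869.6 and 1246 CPM and Ptgds at 9227 and 2688. Fyn was at 132 against 2282 CPM and Hmgcs1 at 349 against 991. Oligodendrocytes thus held more of the first pair and less of the second.

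Adult oligodendrocytes varied widely in Ptgds. Over the 768 cells under the other thresholds, thinned to 2000 UMIs, Ptgds had a median of 20 UMIs, quartiles of 10 and 31, and a range of 0 to 78. Mbp had a median of 14 with quartiles of 10 and 19, and Car2 14 with 10 and 18. By variance over mean Ptgds ranked 4 of 5452 genes. The 3 above it were Vtn, Rgs5 and Hba-a1, genes of mural cells and of erythrocytes, detected in 1.30%, 2.99% and 3.39% of the cells. Klk6 and Hopx, genes of mature cells named after their values were seen, were detected in 3.52% and 2.34% of the cells.

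A small group of adult oligodendrocytes carried genes of newly formed cells, Gpr17 among them. The group was found by looking through the variable genes of the adult cells, and its gene and threshold were chosen after these were seen, so the values are a description. Of 1108 cells, 35 had a UMI of 9630013A20Rik and 12 had at least 5 per 10000 (1.08%, 0.561 to 1.88). They were deep cells, with a median of 17387 UMIs against 4906 in the others, 4 were over the threshold of another class and 1 was marked by Scrublet. A further 11 cells had 2 to 5 per 10000. Against the other adult oligodendrocytes, 612 of 6964 genes (8.79%) were higher by 2-fold or more and 834 (12%) lower.

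In these 12 cells 13 of 16 other genes of the newly formed list were higher and 1 lower, with a median of 2.89. Gpr17 itself, held by the rule under 5 per 10000 and so given as a description, was at 295 CPM against 14.6 in the others, with 55 UMIs in 10 of the 12 cells. Tmem2, a transmembrane protein, was at 767 CPM against 10.2 in the others, with a UMI in 5 of the 12 cells, and Rras2 at 515 CPM against 9.30 in the others. Cholesterol genes were higher in 14 of 22 cases and lower in 0, with a median of 1.44, and Hmgcs1 was at 1201 CPM against 325 in the others. Mature genes were lower in 18 of 25 cases and higher in 1, with a median of -1.76, and Apod was at 541 CPM against 2205 in the others. Markers of other cell types were lower in these cells as well. Microglia markers were lower in 7 of 7 cases (median -2.46, a sum of 59.0 CPM against 634), astrocyte markers in 5 of 7 (-1.14, 783 against 1624) and neuron markers in 3 of 8 (-0.70, 3104 against 3937). Their part in the lower mature genes was not tested. Within the myelin membrane list, 2 of 26 genes were higher and 7 lower. The 2 were Nfasc, at 6423 CPM against 878 in the others, and Sirt2, at 4466 CPM against 855 in the others, the 2 genes of this list that were lower by 2-fold or more in adult than at P10. Sema3d, at 182 CPM against 27.9 in the others, was found in 10 of the 12 cells. The adult cells enter this comparison and the one with P10, so the directions of the 2 are not independent. Against other adult oligodendrocytes of at least 8000 UMIs the medians were 2.65 for the newly formed, 1.33 for the cholesterol and -1.36 for the mature list. Genes of this paragraph outside the lists' leading ones were named after their values were seen.

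**Figure D5:**
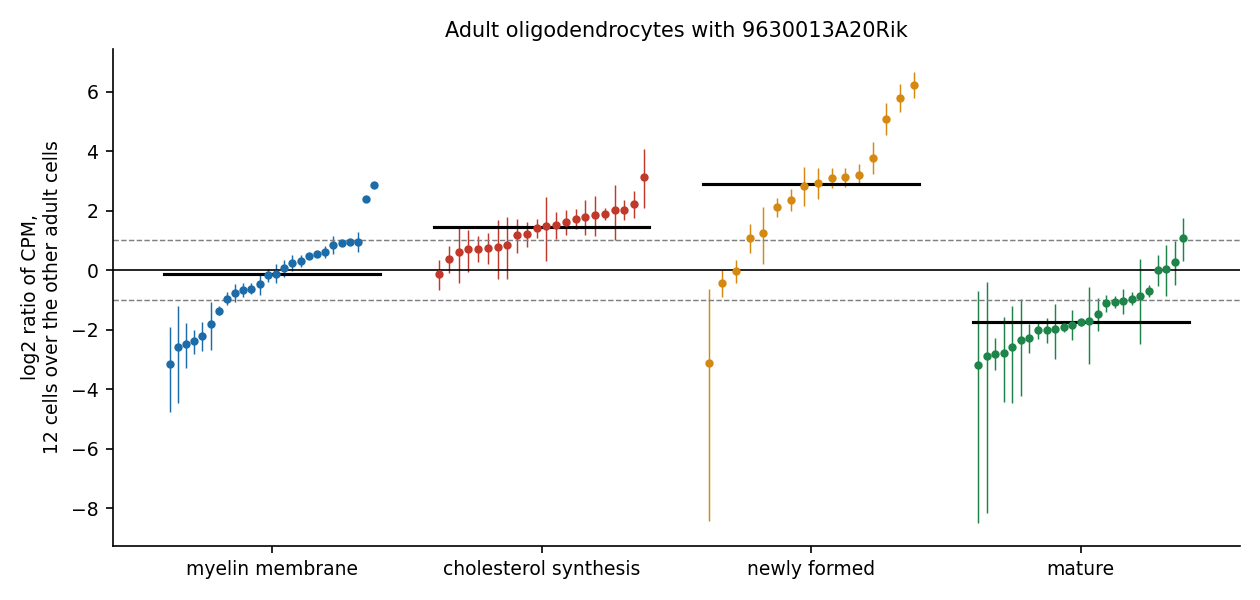
Points give the log2 ratio of CPM of single genes in the 12 adult oligodendrocytes with 9630013A20Rik over the other adult oligodendrocytes, in 4 lists, with exact 95% intervals for counting error. Black bars mark medians, -0.14 for myelin membrane, 1.44 for cholesterol synthesis, 2.89 for newly formed and -1.76 for mature genes, and dashed lines are 2-fold.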

How the data were processed

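Prefrontal cortex cells of 4 ages were captured on BD Rhapsody, 1 library per age per the labels and 2 mice per age per the study's methods, after dissection in Actinomycin D and digestion with protease and papain. The authors aligned reads to mm10 per the labels and deposited UMI counts per cell and gene; the headers name pipeline version 1.8 for P4, P10 and adult and 1.11 for P1. The libraries held 200198548 to 340724049 UMIs. The members, gene lists and measures were chosen with earlier results of these data known.

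Counts were summed over the oligodendrocytes of an age and divided by all UMIs outside mitochondrial and ribosomal protein genes (CPM). Genes with a mean CPM of at least 20 over both ages were compared, and 2-fold or more was called. A gene without a UMI was set at 3 UMIs, a bound. Intervals are exact at 95% and cover counting error only; with 1 library per age there is no test. Per-cell shares were compared after thinning to 2000 UMIs (seed 1). Doublets were marked with Scrublet in scanpy 1.11.5 (expected rate 0.06) and kept; the study's own doublet calls were not used here. Other thresholds per 10000 UMIs were 20 for neurons (Snap25, Syt1, Slc17a7, Gad1, Neurod6), 30 for astrocytes (Aqp4, Gja1, Slc1a2, Slc1a3) and 20 for microglia (C1qa, C1qb, C1qc).

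Genes named are the 7 rule genes, the 3 highest and the 3 most different of each list, the 10 largest rises and falls among genes at least 2 times the level of other cells, Sema3d and Mbp; some items are not reported here, and others are said to be named after their values were seen. Positions are from GENCODE on GRCm38. Scripts ran in Python 3.11.15 with numpy 2.4.6, scipy 1.17.1, pandas 2.3.3 and matplotlib 3.10.9 and were tested on simulated data. Alternatives were other marker sums, cell filters, denominators, centring, thinning, free RNA subtraction and CPM filters.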

Additional observations from a re-analysis of the deposited data

Results flagged for a closer look

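At P4, an age outside the comparisons, 5 of 19014 cells (0.0263%, exact 95% interval 0.00854 to 0.0614) met the marker part of the rule. All 5 were over the Gpr17 limit, so none counted as an oligodendrocyte. The value was singled out because it is a signal in data outside the main measurement.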

How the results depend on the processing

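Cholesterol, newly formed and mature lists kept the sign of their medians in every setting run. The adult share was 7.38% and 8.34% with marker sums of at least 40 and 10, 7.34% without Scrublet-marked cells, 6.46% with a stricter cell filter, 5.45% without cells over another class's threshold (P10 0.0262%) and 8.66% without the Gpr17 and Pdgfra limits (P10 0.373%). Without Scrublet-marked cells the glycolysis median was -0.61 and the guidance median -1.81. Without cells over another threshold, medians were 1.11 for myelin membrane, -2.60 for cholesterol, -3.13 for newly formed and -0.35 for cytoskeleton genes, and Gad2 reversed to -1.74. With thinning, 374 genes were higher and 2486 lower, and the median log2 ratio over all genes moved from -0.19 to -0.92. That shift is in part set by the few P10 UMIs left after thinning, and its size beyond this was not tested. Beside that shift of all genes, medians were -3.20 for newly formed, -0.52 for iron and -1.31 for cell cycle genes, and Hba-a1, Slc2a1 and Tfrc reversed to -0.22, -0.14 and -0.17. With free RNA subtracted, the newly formed median was -2.87 and Ptprz1 reversed to 0.35. Its amount was set by the neuron markers, as their level in oligodendrocytes over that in neurons. This took 52.5% of the P10 and 27.5% of the adult UMIs off along the profile of all cells of the library. Whether this RNA was free or came from barcodes with more than 1 cell was not tested. With a mean CPM of at least 5, 1989 genes were lower, and with at least 50, 508 were higher and 689 lower, since more or fewer genes were compared. Without the Gpr17 and Pdgfra limits, an alternative chosen after seeing the data, medians were 0.75 for myelin membrane, -3.03 for newly formed, 0.59 for glycolysis and 1.16 for channel genes, and Rbfox3, Sgk1 and Tubb4a reversed to 0.22, -0.86 and -0.091. For the 12 adult cells with 9630013A20Rik, the myelin membrane median was 0.16 against deeper cells, and with thinning the guidance and early response medians were 1.42 and 0.55. Where a cause is not given, it was not tested. Genes without a UMI at one age whose bound lay above the other age were given no value, a choice made after the reversals were seen; kept at the bound, single genes reversed 37 times instead of 5, summed over 7 settings that do not include the one without those limits, 3378 instead of 2486 genes were lower with thinning, and the thinned medians were 1.68 instead of 2.82 for mature and -0.28 instead of 0.82 for immune genes. Leaving out each P10 cell gave 976 to 1108 higher and 1233 to 1416 lower genes. No paired analysis was possible because each age is 1 library, and for the same reason no replicate could be left out. The 9 P10 cells limit every value for that age.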
